A study of Mus musculus with 8 samples.

Results

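The genes described here encode the aminoacyl-tRNA synthetases of the mouse, 20 that serve the cytosol and 16 that serve mitochondria. They were chosen by gene symbol, and a gene was kept when a probe set named that gene alone; of several such probe sets, the one with the highest mean over all 8 arrays was used. This gave 34 of the 36 genes, out of 22180 genes on the array: 18 of 20 cytosolic and 16 of 16 mitochondrial ones. Aars shares its probe set with another gene and Dars is unnamed here, so neither is reported. Gars and Kars are counted with the cytosolic genes, although each also makes the mitochondrial enzyme. Nars2 was the 1 gene with more than 1 probe set. The family was picked with its genotype difference on these arrays already seen, so its counts and tests describe it and are no independent evidence.

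The arrays hold RNA from newborn epidermis of C57BL/6J mice (postnatal day 0), 4 per genotype. In K320E-TwinkleEpi newborns (K320E below), the K320E mutant of Twinkle, the mitochondrial DNA helicase, was directed to the epidermis. This was done through the K14 promoter, which is active in basal keratinocytes. The 4 control arrays carry the label R26-K320E-TwinkleloxP/+, so the K320E-Twinkle allele is named in both genotypes. Nothing in the labels ties each array to an animal or a litter of its own. The p-values cover no more than the spread among these 8 samples, and that spread may be technical in part.

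An aminoacyl-tRNA synthetase joins an amino acid to its tRNA, the step that supplies both the cytosolic and the mitochondrial ribosome. Most amino acids have separate nuclear genes for the cytosolic and the mitochondrial enzyme, and the mitochondrial ones charge tRNAs that mitochondrial DNA encodes. Several cytosolic enzymes sit together in the multisynthetase complex. Many cytosolic synthetase genes are known targets of ATF4, the transcription factor of the integrated stress response, which binds C/EBP-ATF response elements.

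Values are log2 intensities, and 1 unit is a doubling of signal. Correlations between arrays ran from 0.976 to 0.994. Twnk, the helicase gene, was at 8.91 to 9.28 in K320E and 6.55 to 6.95 in controls (limma log2 fold change 2.31, SE 0.11, adjusted p = 0.00011), 4.97-fold. Whether its probe set reads the mutant and the normal transcript alike is not given in the sources used here. Of 8 keratinocyte markers 7 were measured, with Krt1, Krt10 and Krt14 at 12.18 or higher on every array. Over all genes limma called 152 higher in K320E and 43 lower (Benjamini-Hochberg adjusted p under 0.05). Control replicate 2 carried both Xist (9.27) and Y-linked transcripts (mean 9.05), and control replicate 3 was low for both (6.17 and 4.75). K320E replicate 3 was the only K320E array with Y-linked signal (8.64) and low Xist (6.84); without it 53 genes were called in all. In bulk RNA, fewer cells of a type and less RNA per cell cannot be told apart.

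Signals of the cytosolic synthetases lay above the control mean in K320E, 4 of them past the test, and no mitochondrial synthetase passed it. All 18 cytosolic genes had a positive fold change, with a median of 0.35 and a range from 0.03 to 0.56 on the log2 scale. Of the 16 mitochondrial genes 10 were positive and 6 negative, with a median of 0.05 and a range from -0.25 to 0.21. The median over all genes was -0.0005, and 49.8% of them were positive. In limma's test 4 of 18 cytosolic genes, Cars, Nars, Yars and Mars, rose and 0 fell, where 0.685% of all genes were called higher and 0.194% lower (0.879% in either direction). At an unadjusted p under 0.05 it was 15 of 18, against 8.77% of all genes. The K320E arrays lay above all controls for 14 of the 18, which held for 5.5% of all genes; they lay below all controls for 0 of the 18, against 3.75% of all genes. The count of 4 fell to 1 without control replicate 2 or K320E replicate 3, and to 2 without control replicate 1 or K320E replicate 4. It was 0 with the hair shaft marker mean as a covariate, whose values stand with the marker lists further on. That mean did not overlap between genotypes, so the fit cannot separate it from genotype.

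**Figure D1:**
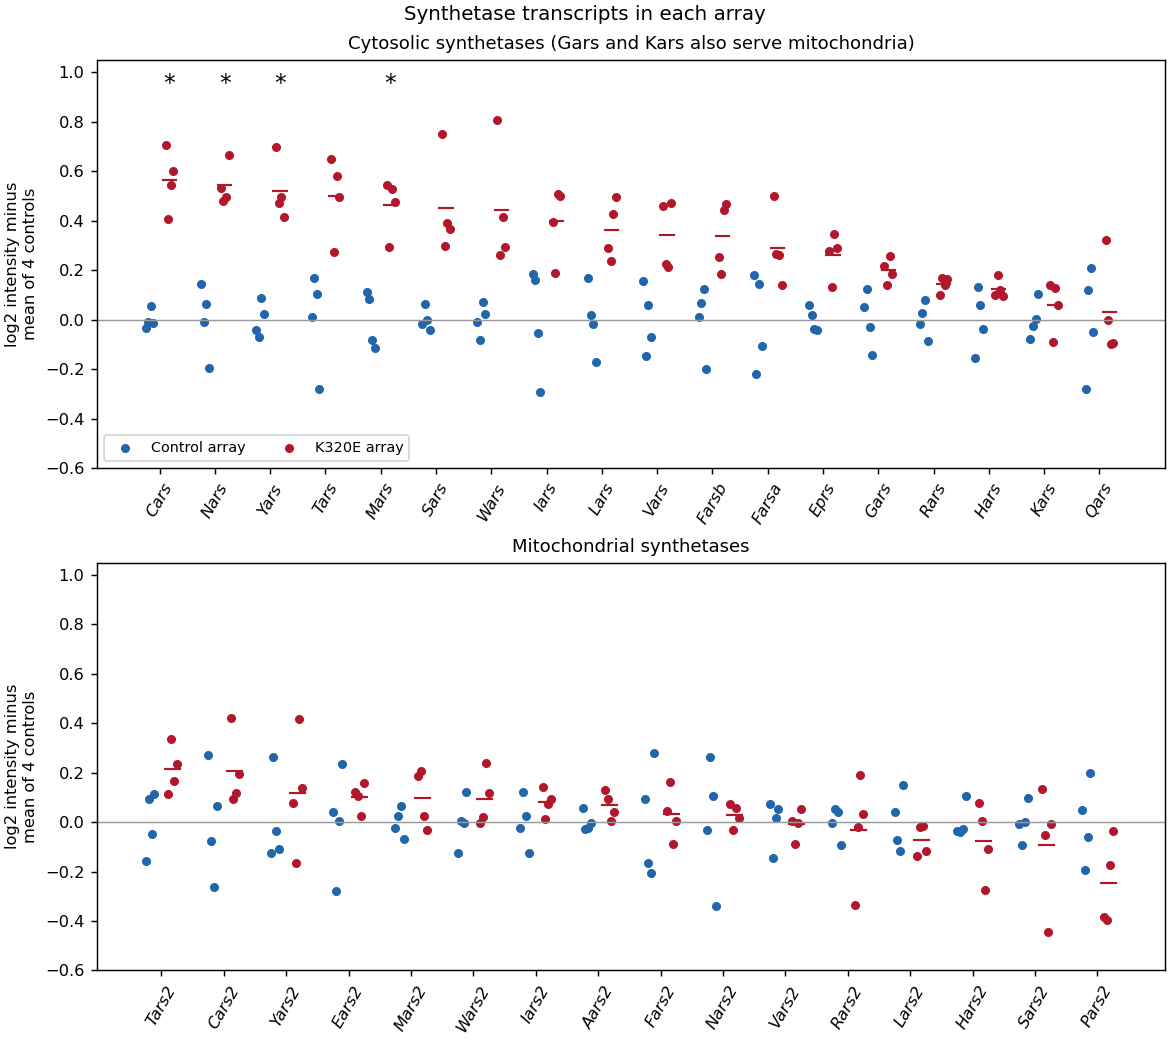
Each point is the log2 intensity of 1 array minus the mean of the 4 control arrays for that gene (blue, control; red, K320E; red bar, mean of the 4 K320E arrays; asterisk, limma adjusted p under 0.05 over all genes). For 14 of 18 cytosolic genes all red points lie above all blue ones, and for 15 of 16 mitochondrial genes the colours overlap.

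Cars, which charges cysteine tRNA, had the highest fold change. Its probe set (17498271) read 9.05, 8.75, 8.89 and 8.95 in K320E replicates 1 to 4 and 8.31, 8.34, 8.40 and 8.33 in the controls. The lowest K320E array was 0.35 above the highest control. The log2 fold change was 0.56 (SE 0.07, limma adjusted p = 0.0101), or 1.48-fold, and it was called in all 8 fits that left out 1 array.

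Nars, the asparagine enzyme, read 11.19, 11.13, 11.15 and 11.32 in K320E and 10.80, 10.64, 10.72 and 10.46 in controls (probe set 17355009). The groups did not overlap, and control replicate 4 was the lowest array. The fold change of 0.54 (SE 0.08, limma adjusted p = 0.0210) was called in 4 of the 8 fits that left out 1 array, the exceptions being those without K320E replicate 1, 3 or 4 or control replicate 2 (adjusted p up to 0.0698).

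Yars charges tyrosine tRNA. Its K320E values were 8.50, 8.27, 8.29 and 8.21 and its control values 7.76, 7.73, 7.89 and 7.82 (probe set 17418952). All K320E arrays were higher, and replicate 1 was the highest of them. Yars rose by 0.52 (SE 0.07, limma adjusted p = 0.0166), a call lost without K320E replicate 3 or control replicate 1 or 2 (adjusted p up to 0.0605).

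Mars, the methionine enzyme, which also charges the initiator tRNA of cytosolic translation, read 8.48, 8.23, 8.47 and 8.41 in K320E and 8.05, 8.02, 7.85 and 7.82 in controls (probe set 17245850). The groups did not overlap, although K320E replicate 2 was only 0.18 above the highest control. Its fold change of 0.46 (SE 0.08, limma adjusted p = 0.0374) was called in 1 of the 8 fits that left out 1 array, the one without K320E replicate 2 (adjusted p up to 0.123 in the others).

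Among the 14 cytosolic genes that did not pass, the lowest adjusted p values belonged to Sars, Tars and Eprs. Sars, for serine, read 10.95, 10.49, 10.58 and 10.56 in K320E and 10.18, 10.26, 10.19 and 10.15 in controls. All K320E arrays were above all controls, with replicate 1 well above the other K320E arrays (fold change 0.45, SE 0.10, limma adjusted p = 0.0729). Tars, for threonine, read 10.36, 9.98, 10.29 and 10.21 in K320E and 9.72, 9.88, 9.81 and 9.43 in controls, and again the groups did not overlap. Its fold change of 0.50 was larger than that of Mars, with a wider error (SE 0.11, limma adjusted p = 0.0910). Eprs, a fused enzyme for glutamate and proline, read 10.77, 10.63, 10.84 and 10.79 in K320E and 10.55, 10.51, 10.46 and 10.46 in controls, a smaller but tight difference of 0.26 (SE 0.06, limma adjusted p = 0.0968).

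A further 7 cytosolic genes had groups that did not overlap but adjusted p values from 0.104 to 0.266. Lars, for leucine, spanned 10.64 to 10.90 in K320E and 10.24 to 10.58 in controls (fold change 0.36). Wars, for tryptophan, spanned 7.99 to 8.53 and 7.64 to 7.79 (0.44), with K320E replicate 1 at the top. Iars, for isoleucine, spanned 10.07 to 10.39 and 9.59 to 10.07 (0.40), so that its groups nearly touch. Vars, for valine, spanned 7.02 to 7.28 and 6.66 to 6.97 (0.34). Farsb, the beta subunit of the phenylalanine enzyme, spanned 10.40 to 10.68 and 10.01 to 10.34 (0.34). Gars, for glycine, spanned 11.09 to 11.21 and 10.81 to 11.08 (0.20), and Rars, for arginine, 10.97 to 11.04 and 10.79 to 10.95 (0.14).

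The groups overlapped for the remaining 4. Farsa, the alpha subunit that pairs with Farsb, had a fold change of 0.29 (95% interval 0.05 to 0.54), close to that of its partner. Hars, for histidine, had one of 0.12 (-0.03 to 0.28). Kars, for lysine, was at 0.06 (-0.10 to 0.22), and Qars, for glutamine, at 0.03 (-0.25 to 0.32). The intervals of Kars, Qars and Hars lie below the cytosolic median of 0.35, and so does that of Rars (0.02 to 0.27). Both genes of dual use, Gars and Kars, were in the lower part of the cytosolic range, and the median of the 16 genes without them was 0.38.

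**Figure D2:**
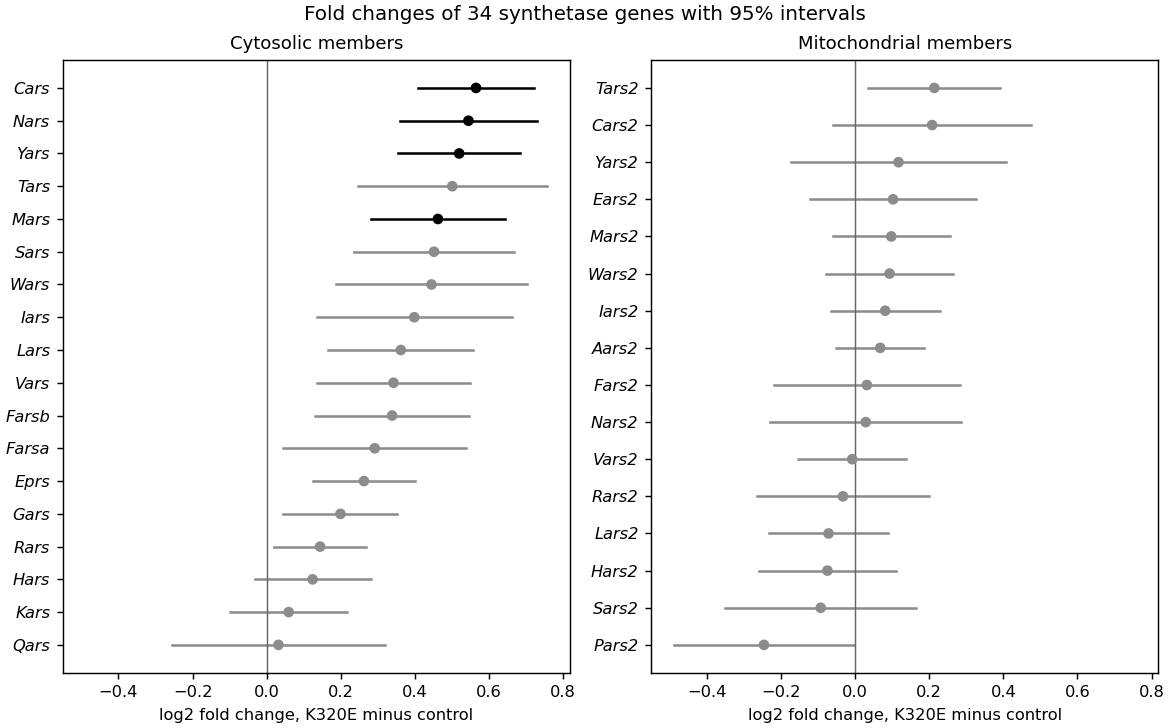
Points are limma log2 fold changes, K320E minus control, and lines are 95% intervals not adjusted for multiple testing (black, adjusted p under 0.05; grey, not). The cytosolic points lie between 0.03 and 0.56 and the mitochondrial ones between -0.25 and 0.21.

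Within the cytosolic set, genes outside the multisynthetase complex had a median of 0.44 (11 genes, 3 called) and those in it one of 0.26 (7 genes, 1 called, Mars). The ranges, 0.12 to 0.56 and 0.03 to 0.46, overlap, and the difference was not tested. The complex members ran from Mars and Iars at the top to Kars and Qars at the bottom. Synthetases fall into classes I and II by the fold of their catalytic domain. The medians were 0.40 for class I (9 genes, 3 called) and 0.31 for class II (8 genes, 1 called), with Eprs, which holds both folds, left out. Of the non-enzyme subunits of the complex, Eef1e1 had a fold change of 0.37 (SE 0.12, limma adjusted p = 0.208) and the scaffold Aimp1 one of -0.0034 (SE 0.05, limma adjusted p = 0.983).

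No mitochondrial synthetase passed the test in either direction: limma called 0 of 16, with 1 higher and 1 lower at an unadjusted p under 0.05, against 8.77% and 6.06% of all genes. Tars2, for threonine, was the higher one. It read 7.13, 7.35, 7.18 and 7.25 in K320E and 6.86, 7.11, 6.97 and 7.13 in controls, and was the only mitochondrial gene whose groups did not overlap, by a margin of 0.0003 (fold change 0.21, SE 0.08, limma adjusted p = 0.248). Pars2, for proline, was the lower one. It read 6.12, 6.11, 6.33 and 6.47 in K320E and 6.55, 6.31, 6.44 and 6.70 in controls, with overlap (fold change -0.25, SE 0.11, limma adjusted p = 0.328). Cars2, the partner of the highest cytosolic gene, read 7.81, 7.48, 7.50 and 7.58 in K320E and 7.66, 7.31, 7.12 and 7.45 in controls. Its groups overlapped, and its interval of -0.06 to 0.48 is the one that reaches highest (fold change 0.21, limma adjusted p = 0.474).

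The other 13 mitochondrial genes had fold changes between -0.09 and 0.12, and in all of them the groups overlapped. Positive values ran from 0.12 in Yars2, for tyrosine, through 0.10 in Ears2, for glutamate, and Mars2, for methionine, 0.09 in Wars2, for tryptophan, 0.08 in Iars2, for isoleucine, and 0.07 in Aars2, for alanine, to 0.03 in Fars2, for phenylalanine, and Nars2, for asparagine. Negative values ran from -0.01 in Vars2, for valine, and -0.03 in Rars2, for arginine, to -0.07 in Lars2, for leucine, and Hars2, for histidine, and -0.09 in Sars2, for serine. The second probe set of Nars2 gave 0.08 (SE 0.09, limma adjusted p = 0.779 over all probe sets), also without a call. For 13 of the 16 mitochondrial genes the 95% interval ended below 0.35, the cytosolic median. Among cytosolic genes those of Hars, Kars, Qars and Rars did so too. The standard errors were alike in both sets, 0.06 to 0.13 for cytosolic and 0.05 to 0.13 for mitochondrial genes.

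The array signals of the mitochondrial set lay lower than those of the cytosolic set, at mean levels of 6.05 to 9.11 against 6.98 to 11.05. Signals of different probe sets are not on a common scale, so this is no comparison of transcript amounts. Among all genes within the signal range of the mitochondrial set 1.11% were called higher, and within that of the cytosolic set 1.34%. These ranges overlap, so the shares say little about signal level. The lowest mitochondrial mean level, 6.05, was close to the array medians of 6.06 to 6.11. The part of signal level in the difference between the compartments was not tested. All 34 genes lay above the lowest 1 in 3 genes by mean level.

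The compartments were then compared amino acid by amino acid, through the difference between the cytosolic and the mitochondrial gene on the same array. There were 16 such pairs from 15 cytosolic and 15 mitochondrial genes; Eprs enters with Ears2 and with Pars2, and Fars2 with Farsa and with Farsb. The difference was larger in K320E for 16 of 16 pairs, by 0.16 to 0.54 with a median of 0.35. Limma called 0 of 16 pairs when they were adjusted together with all genes, with 10 of 16 at an unadjusted p under 0.05. Of all single genes 49.8% had a positive fold change and 8.77% were higher at an unadjusted p under 0.05. The pairs reuse the genes counted above, so their counts largely repeat those of the cytosolic set. So no amino acid showed a compartment difference past the threshold, while 10 of the 95% intervals lay above 0.

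**Figure D3:**
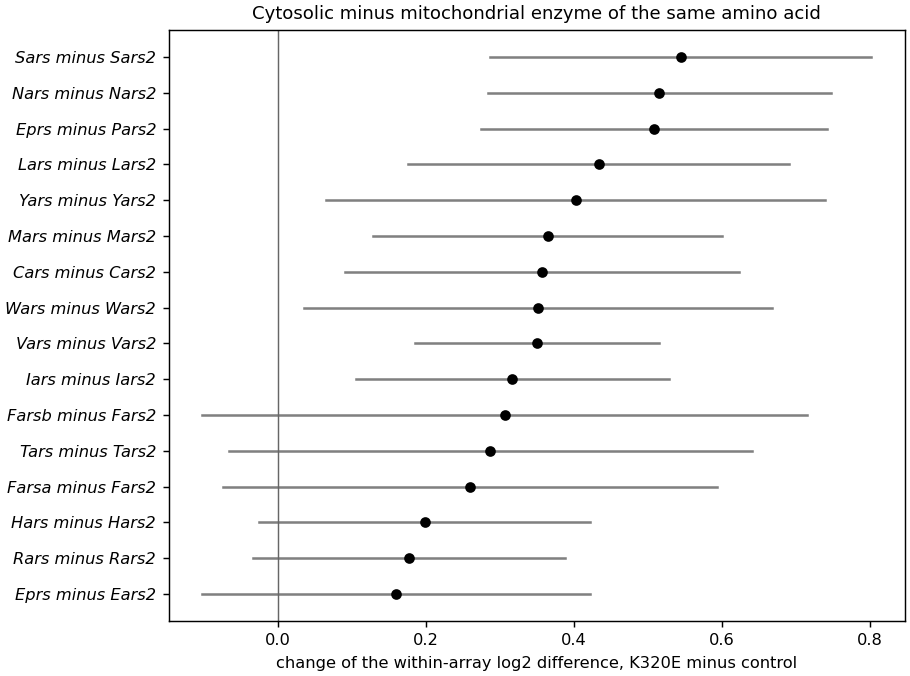
Points are the change, K320E minus control, of the within-array log2 difference between the cytosolic and the mitochondrial gene of an amino acid, and lines are 95% intervals not adjusted for multiple testing. All 16 points lie right of 0, between 0.16 and 0.54, and 6 of the intervals include 0.

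The largest changes were in serine, asparagine and proline. Sars minus Sars2 was 3.97, 3.70, 4.19 and 3.73 in K320E and 3.34, 3.51, 3.35 and 3.22 in controls, a change of 0.54 (95% interval 0.29 to 0.80, limma adjusted p = 0.0690). Nars minus Nars2 was 3.85, 3.90, 3.82 and 4.04 in K320E and 3.56, 3.11, 3.35 and 3.53 in controls, a change of 0.52 (0.28 to 0.75, limma adjusted p = 0.0612). Eprs minus Pars2 changed by 0.51 (0.27 to 0.74, limma adjusted p = 0.0649), part of which is the lower value of Pars2. In these 3 pairs the groups did not overlap, nor did they in those of leucine, tryptophan and valine, 6 of 16 in all. Among all single genes 5.5% had K320E arrays above all controls. Vars minus Vars2 changed by 0.35 (0.18 to 0.51, limma adjusted p = 0.0686). Eprs with its other partner, Ears2, changed by 0.16 (-0.10 to 0.42), the smallest of the 16. Hars and Hars2, which lie next to each other in the genome, changed by 0.20 (-0.02 to 0.42). Under other settings between 0 and 3 pairs were called, and the 3 were these of serine, asparagine and proline, when the 1 in 3 genes of lowest mean level were left out.

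Averaged over its 18 genes, the cytosolic set stood at 9.90, 9.70, 9.81 and 9.81 in K320E and 9.49, 9.49, 9.51 and 9.37 in controls. The mitochondrial set stood at 7.27, 7.25, 7.25 and 7.28 in K320E and 7.24, 7.21, 7.20 and 7.27 in controls. The K320E arrays were all higher for the cytosolic mean, and the groups overlapped for the mitochondrial one. Arrays also differed within a genotype. K320E replicate 1 was the highest K320E array for 9 of 18 cytosolic genes and replicate 2 the lowest for 12, and control replicate 4 was the lowest control for 10.

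Array means of other cell types moved too. For scale, limma called 0.685% of all genes higher and 0.194% lower. At an unadjusted p under 0.05, 8.77% of all genes were higher and 6.06% lower, and 49.8% had a positive fold change. Hair shaft markers were lower in K320E, with array means of 6.48 to 6.67 against 6.70 to 7.45 (14 of 16 measured genes negative, 0 called by limma, 6 lower at an unadjusted p under 0.05), and control replicate 4 was the highest array for them. Keratinocyte markers were higher, at 11.33 to 11.50 against 11.09 to 11.25 (5 of 7 positive, 1 called, Dsg3). Langerhans cell markers were lower, at 6.46 to 6.52 against 6.81 to 6.97 (6 of 6 negative, 2 called lower, against 0.194% of all genes). The called genes were the MHC class II genes H2-Aa (-1.05) and H2-Ab1 (-0.98), and the list median was -0.18. The rest of the list lay between -0.18 and -0.03, with Cd207 at -0.07, so the difference in means came mainly from H2-Aa and H2-Ab1. Neutrophil markers were at 6.08 to 6.21 against 5.47 to 5.97 (9 of 12 positive, 0 called), with a list median of 0.08. That difference in means came from S100a8 (1.73), S100a9 (1.56) and Cxcr2 (1.32), and the other 9 genes lay between -0.06 and 0.20. The array means overlapped between genotypes for skeletal muscle (6.72 to 7.84 against 6.27 to 7.08, 10 of 10 positive, 0 called), sebocyte (6.65 to 6.93 against 6.79 to 7.60), melanocyte (7.94 to 8.31 against 8.19 to 8.64), T cell (6.11 to 6.66 against 6.52 to 6.86, 1 of 5 positive, 3 lower at an unadjusted p under 0.05), mast cell (5.93 to 6.49 against 5.63 to 6.09), fibroblast (7.88 to 8.38 against 7.58 to 8.23), macrophage, endothelial and erythroid markers. In the T cell list Thy1 was called higher (0.69), while the T cell receptor subunits Cd3g, Cd3d and Cd3e were at -1.19, -0.75 and -0.38 and not called. A log2 intensity has no true zero, and the lowest value in the table was 4.31. With the hair shaft mean as a covariate the cytosolic median was 0.29, 0 of 18 cytosolic genes were called and 18 genes in all. Without control replicate 4 the cytosolic median was 0.30, and 3 cytosolic genes and 118 genes in all were called. The hair shaft means did not overlap between genotypes, so the covariate fit cannot tell their part from that of genotype. The part of the other marker lists in these results was not tested either.

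**Figure D4:**
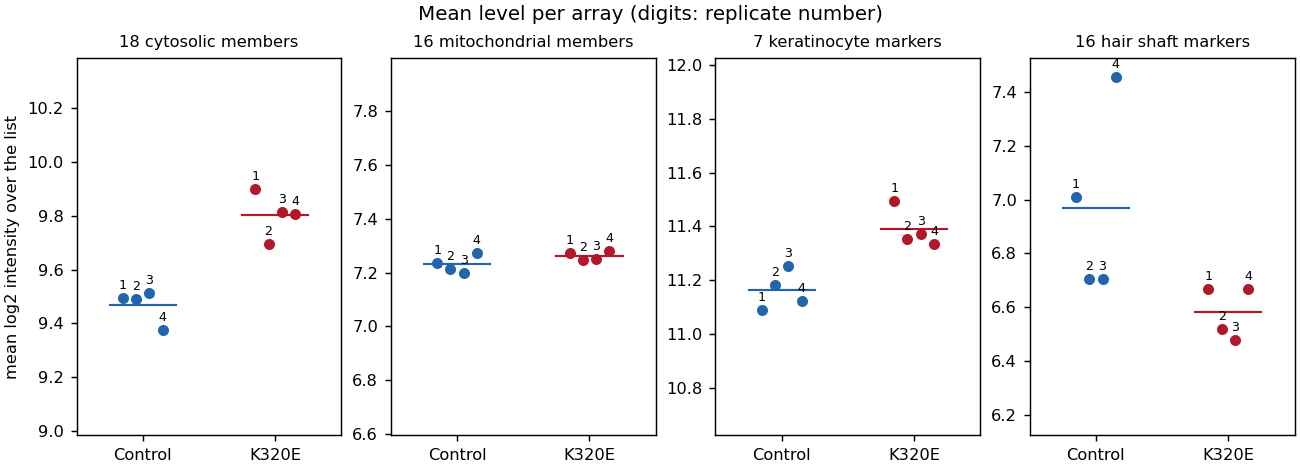
Points are the mean log2 intensity of each array over 4 gene sets, with replicate numbers beside them and bars for the mean of 4 arrays; the panels have axes of equal length that do not start at 0. The K320E arrays lie above the controls for the cytosolic set and the keratinocyte markers, below them for the hair shaft markers, and among them for the mitochondrial set.

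Promoter sequences were searched for the core of the C/EBP-ATF response element, TGATGNAA, in RefSeq windows of 300 bases (250 before the transcription start to 50 after it, build GRCm38.p6), on both strands. Of the 36 genes 27 have a window in that table. Cars, Nars, Lars, Hars, Hars2, Rars, Vars, Wars and Pars2 have none. The core was found in 5 of 13 cytosolic windows (Aars, Gars, Iars, Tars and Yars) and in 0 of 14 mitochondrial ones, and in 4.51% of all 27025 genes with a window. Its stricter form TGATGCAA, which is contained in TGATGNAA, was found in Aars, Iars, Tars and Yars, and in 1.03% of all genes. The palindromic cyclic AMP response element TGACGTCA was in 0 of 13 and 0 of 14, against 2.03% of all genes. CCAAT, a common element taken for scale, was in 7 of 13 cytosolic and 6 of 14 mitochondrial windows, against 41.1%.

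The stretches below run from 130 bases before the start to 20 after it, on the strand of the gene, and are shown because these are the 4 measured genes that hold the core. Capitals mark the TGATGNAA match, which reads TTGCATCA or TTTCATCA where it lies on the opposite strand. The stretches are chr4:129189773-129189922, plus strand (Yars), chr15:11399639-11399788, minus strand (Tars), chr13:49682000-49682149, plus strand (Iars) and chr6:55037871-55038020, plus strand (Gars).
Yars: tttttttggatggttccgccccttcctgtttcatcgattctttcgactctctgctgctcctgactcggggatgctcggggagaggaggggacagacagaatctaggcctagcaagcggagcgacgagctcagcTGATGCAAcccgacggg
Tars: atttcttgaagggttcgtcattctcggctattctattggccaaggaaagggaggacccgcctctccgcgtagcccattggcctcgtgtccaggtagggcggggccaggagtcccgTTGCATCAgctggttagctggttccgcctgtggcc
Iars: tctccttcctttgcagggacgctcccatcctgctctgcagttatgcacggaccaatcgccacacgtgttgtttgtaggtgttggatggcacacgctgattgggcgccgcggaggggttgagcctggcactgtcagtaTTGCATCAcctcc
Gars: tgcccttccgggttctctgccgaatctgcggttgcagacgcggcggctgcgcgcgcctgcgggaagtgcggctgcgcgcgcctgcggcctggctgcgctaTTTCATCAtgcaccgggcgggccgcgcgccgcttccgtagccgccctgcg

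The match begins 15 bases before the start in Tars and 30 before it in Gars, and at base 4 after the start in Yars and base 8 in Iars. For comparison, the mitochondrial partners of 3 of these genes have no match, nor has Mars, which was called. They are chr16:16302835-16302984, plus strand (Yars2), chr3:95754958-95755107, minus strand (Tars2), chr1:185329382-185329531, minus strand (Iars2) and chr10:127311767-127311916, minus strand (Mars).
Yars2: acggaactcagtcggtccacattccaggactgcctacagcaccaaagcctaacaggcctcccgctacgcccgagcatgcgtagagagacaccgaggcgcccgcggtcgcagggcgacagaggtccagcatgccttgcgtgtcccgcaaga
Tars2: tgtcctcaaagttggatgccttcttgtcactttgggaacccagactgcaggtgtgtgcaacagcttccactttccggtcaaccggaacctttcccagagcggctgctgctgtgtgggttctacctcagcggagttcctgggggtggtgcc
Iars2: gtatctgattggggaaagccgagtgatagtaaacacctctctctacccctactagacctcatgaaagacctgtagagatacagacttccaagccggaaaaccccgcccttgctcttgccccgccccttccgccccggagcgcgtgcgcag
Mars: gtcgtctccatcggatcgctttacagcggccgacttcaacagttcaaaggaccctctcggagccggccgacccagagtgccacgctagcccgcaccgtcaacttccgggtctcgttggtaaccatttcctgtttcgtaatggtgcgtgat

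The 4 measured cytosolic genes with the core had fold changes of 0.20 to 0.52 (1 of 4 called, Yars), and the 7 with a window that lacks it had 0.03 to 0.46 (1 of 7 called, Mars). The ranges overlap, with Mars and Sars at the top of the genes without a match. A match is a run of letters, not a bound site, and a window without one says nothing about sites outside it.

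Other steps of tRNA charging and translation were compared in 10 lists. In 7 of them limma called 0 of 56 measured genes, with 6 higher and 2 lower at an unadjusted p under 0.05, near the 8.77% and 6.06% of all genes, and the list medians ran from -0.09 to 0.18. These were the subunits of the multisynthetase complex above, other tRNA charging enzymes (7 genes, median 0.06), tRNA editing and deacylation (4 genes, median -0.09), tRNA maturation and export (19 genes, median 0.05), cytosolic elongation factors (7 genes, median 0.07), mitochondrial translation factors (11 genes, median 0.02), and eIF2 with its exchange factor eIF2B (6 genes, median 0.07). Of the 6 higher genes 4 were among the 19 of tRNA maturation and export, against 8.77% of all genes. For 4 of these 19 the K320E arrays lay above all controls, against 5.5% of all genes. Eef1a1, the elongation factor that carries charged tRNA to the ribosome, had a fold change of -0.08. Xpot, which exports tRNA from the nucleus, had the highest value in these lists, 0.54 (SE 0.11, limma adjusted p = 0.0641), with groups that did not overlap.

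The 3 lists with called genes concern amino acid supply and the ATF4 pathway, and were drawn up with earlier results of these arrays known. Over all genes 0.685% were called higher and 0.194% lower. Of 14 amino acid synthesis genes 5 rose and 0 fell (median 0.42). Asns, which makes the amino acid that Nars loads, rose by 0.99, and Cth, which makes the cysteine that Cars loads, by 1.46. Psat1 and Psph, both in the serine pathway, rose by 0.55 and 0.65, and Aldh18a1, in that of proline, by 0.60. Of 9 amino acid transporter genes 5 rose and 0 fell (median 0.66), namely Slc7a3, Slc7a11, Slc3a2, Slc7a1 and Slc7a5. Of 12 ATF4 pathway factors 3 rose and 0 fell (median 0.34): Eif4ebp1, Vldlr and Ddit3, while Atf4 itself had a fold change of 0.33 (limma adjusted p = 0.145). Ddit3 (limma adjusted p = 0.0497), Psph, Slc7a1 and Slc7a5 were each called in 1 of the 8 fits that left out 1 array, and Ddit3 also lost its call under quantile normalisation and median centring. The count of 13 called genes over the 10 lists fell to 4 without K320E replicate 3 and to 1, Slc7a3, with the hair shaft covariate. The cytosolic synthetases had a median of 0.35 with 4 of 18 called, beside 0.34 and 3 of 12 for these ATF4 pathway factors. The highest synthetase value, 0.56, was below that of Asns or Cth. Whether the synthetases and these lists share a regulator was not tested.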

How the data were processed

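Epidermal RNA of newborn mice was measured in 8 samples, 1 array each. Per the labels, a Maxwell 16 kit was used for extraction and NuGEN's Applause WT-Amp Plus ST for amplification, followed by biotin labelling. The authors deposited log2 intensities of 33793 probe sets. How background was corrected and arrays were normalised is not given in the sources used here. Array medians lay between 6.06 and 6.11, and the number of arrays limits the precision. Groups and replicate numbers come from the titles.

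Probe sets were named through GEO's platform annotation: 23521 had 1 symbol, 1814 several and 8458 were unnamed here. The genotypes were compared over 22180 genes by limma (version 3.58.1, R 4.3.3), using lmFit and eBayes with genotype as the only term, Benjamini-Hochberg adjustment over all genes and a cutoff of 0.05. A positive fold change is higher in K320E; its SE is the moderated one. Pairs were fitted as added features and adjusted over 22196 genes and pairs. The fit was tested on simulated data. Promoter windows are RefSeq's.

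The genes, lists and tests were chosen with earlier results of these arrays known, so counts over them are descriptions. Of 219 list entries 194 were measured. Per-array values are given for called genes and for the 3 cytosolic and 3 mitochondrial genes next in adjusted p. From each pathway list the called genes and the 2 brightest may be named, and from each marker list the 2 brightest. The names Xpot, Krt14, Dsg3, H2-Aa, Cd207, S100a8, Cd3d and Cd3e were picked with their values in view. So were the per-array values of pairs. The settings varied were normalisation (quantile, or centring each array on its median), the probe set of a gene (their mean, or each on its own), a filter on the lowest 1 in 3 genes, the variance model (intensity trend and robust prior), quality weights per array, and the replicate block. Others were covariates for Y-linked or hair shaft means, leaving out control replicates 2 and 3 or each array in turn, and a shorter promoter window.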

Additional observations from a re-analysis of the deposited data

Results flagged for a closer look

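Of 74 groups of 4 arrays, 2 held an array that stood apart from the other 3, where chance gives about 1 in 20. For Hars2, control replicate 4 was at 7.65 and the other controls at 7.51 to 7.52. For the mean of the cytosolic set, control replicate 4 was at 9.37 and the other controls at 9.49 to 9.51.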

How the results depend on the processing

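Over 19 other settings 338 of 342 cytosolic fold changes were positive; the 4 others were all Qars. The cytosolic median was 0.30 to 0.41 and the mitochondrial one 0.03 to 0.06 when 1 array was left out, and the mitochondrial median was 0.0153 after quantile normalisation. No mitochondrial gene was called in any of the 19. Leaving out 1 array gave 1 to 4 called cytosolic genes (main value 4), 53 to 173 genes in all (195), 4 to 15 pathway genes (13), 1 to 5 marker genes (4) and 0 of 16 pairs. The fewest, 53, came without K320E replicate 3. With the hair shaft covariate, 0 cytosolic, 1 pathway, 1 marker and 18 genes in all were called. Cars lost its call there alone, at a fold change of 0.57 and a larger SE of 0.10 (limma adjusted p = 0.121). Without control replicates 2 and 3, 1 cytosolic and 7 pathway genes were called. Sars was called without K320E replicate 1 (0.35, limma adjusted p = 0.0490). Pairs called numbered 3 with the lowest 1 in 3 genes left out, where 8 marker genes were called, 2 with the Y-linked covariate, and 1 each with the mean over probe sets and with array quality weights. The cause of these changes was not tested.

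The replicate numbers gave no clear sign of pairing: deviations of same-numbered arrays correlated at 0.05, -0.06, 0.08 and 0.14. K320E replicates 1 and 4 correlated best with the control of their own number, and replicates 2 and 3 did not. Whether same-numbered arrays share a litter or a processing step was not tested. With the replicate block 114 genes in all, 1 cytosolic gene and 8 pathway genes were called.

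With 4 arrays a group, a cytosolic or mitochondrial gene that missed the threshold is not shown to be unchanged.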
